A study of Rattus norvegicus with 3 samples.

Results

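Fibroblast growth factor (FGF) receptors and ligands were followed by name through the rat condyle data: the receptor genes Fgfr1, Fgfr2, Fgfr3, Fgfr4 and Fgfrl1 and the ligand genes Fgf2 and Fgf18. They were chosen as the family of Fgfr1, which the study names as a target of the microRNA miR-330, and all 7 were listed in the tables, of 20896 gene names in all. Their identifiers in the files are ENSRNOG00000016050 for Fgfr1, ENSRNOG00000016374 for Fgfr2, ENSRNOG00000016818 for Fgfr3, ENSRNOG00000016763 for Fgfr4, ENSRNOG00000024207 for Fgfrl1, ENSRNOG00000017392 for Fgf2 and ENSRNOG00000048389 for Fgf18.

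Cells of the condylar cartilage and subchondral bone of Sprague Dawley rats were sequenced in droplets with unique molecular identifiers (UMIs), which count captured RNA molecules by their 3′ ends. All rats were wild type and received an adeno-associated virus (AAV) in the joint. The sham group had the empty Vector AAV and no bite change. The UAC group had the Vector AAV and a unilateral anterior crossbite, a dental device that overloads the jaw joint, and the UAC + miR-330 group had the crossbite and an AAV that carried miR-330. The crossbite lasted 8 weeks. Each group is 1 library made from 16 pooled condyles of 8 rats, so rats within a pool cannot be told apart and no difference between groups has a replicate check. The libraries held 77668015 UMIs (sham), 92629658 (UAC) and 97255383 (UAC + miR-330), in 15, 18 and 19 clusters that were made in each library alone.

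FGF receptors are membrane tyrosine kinases that bind FGF ligands together with heparan sulfate and signal through adaptors to the RAS-MAPK cascade, while sprouty and dual-specificity phosphatase proteins are induced by the signal and dampen it. In the growth plate Fgfr3 is known for restraining chondrocyte proliferation, Fgfr1 for its place in hypertrophic chondrocytes and in cartilage catabolism, and Fgfr2 for its place in osteogenic precursors. Fgf18 is known as a ligand that favours cartilage matrix, and Fgf2 is a ligand stored in cartilage matrix and released on loading.

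In each library the cluster with the most chondrocyte markers was taken as chondrocyte-like. It was cluster 12 in sham, cluster 16 in UAC and cluster 17 in UAC + miR-330, with 17, 17 and 18 of 20 chondrocyte markers enriched. Osteogenic markers were enriched there as well, 10, 11 and 11 of 12, and so were 9, 8 and 9 of 13 fibroblast markers, so the cluster holds skeletal cells of several kinds. It made up 11.6%, 6.46% and 6.05% of the library's UMIs. Levels below are UMIs per 1000000 UMIs of the cluster, not divided by transcript length, with exact Poisson 95% intervals that cover counting error only.

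Fgfr1 encodes the receptor that the study names as a miR-330 target. In the chondrocyte-like cluster its level was 145 (95% interval 137 to 153) in sham, 144 (135 to 154) in UAC and 225 (213 to 238) in UAC + miR-330, from 1304, 863 and 1326 UMIs. The sham and UAC intervals overlap, and the library with the miR-330 AAV lies above both. The log2 ratio was -0.0023 (-0.13 to 0.12) for UAC against sham and 0.64 (0.52 to 0.77) for UAC + miR-330 against UAC, a 1.56-fold higher level. Against UAC, the library that shares the crossbite, Fgfr1 RNA was higher in UAC + miR-330 under each denominator tried. Over all clusters the UAC + miR-330 level of 19.6 (18.7 to 20.5) was below the sham level of 21.4 (20.4 to 22.5), with intervals that overlap. The size of the difference depends on the denominator: per UMI of the chondrocyte markers the log2 ratio was 0.27, and over all clusters of the library it was 0.42, both below a 1.5-fold difference. For UAC against sham the sign also depended on it, with -0.14 after centring on the median, 0.33 per UMI of the chondrocyte markers and -0.55 over all clusters. Other cells in the cluster and a change per cell cannot be told apart in these sums.

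Fgfr2 encodes a receptor with splice forms in epithelium and mesenchyme. Its level in the chondrocyte-like cluster was 172 (164 to 181) in sham, 245 (233 to 258) in UAC and 289 (275 to 303) in UAC + miR-330. The 3 intervals are apart, in that order. The log2 ratios were 0.51 (0.41 to 0.61) and 0.24 (0.13 to 0.34), each under 1.5-fold. For UAC against sham the ratio was 0.84 per UMI of the chondrocyte markers. It was 0.77 per UMI of the chondrocyte, osteogenic and fibroblast markers, and both values are past 1.5-fold. Over all clusters the UAC level was instead below sham, with a log2 ratio of -0.24. Per UMI of the chondrocyte markers the UAC + miR-330 level was below UAC, at -0.14.

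Fgfr3, the receptor of proliferating chondrocytes, was scarce in sham and UAC and, of the receptors with at least 10 UMIs, had the largest ratio between UAC + miR-330 and UAC. Its level was 6.21 (4.69 to 8.06) in sham, 7.69 (5.63 to 10.3) in UAC and 29.2 (25.0 to 33.9) in UAC + miR-330, from 56, 46 and 172 UMIs. The first intervals overlap and the last lies above both. Between UAC + miR-330 and UAC the log2 ratio was 1.91 (1.45 to 2.43), 3.77-fold higher in the former, and it ranged from 1.54 per UMI of the chondrocyte markers to 2.15 on the scale of the deposited means. For UAC against sham it was 0.31 (-0.29 to 0.90), a difference that was not detectable at this depth, and over all clusters it was -0.35.

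Fgfr4, a receptor best known from liver, had 1, 3 and 3 UMIs in the chondrocyte-like cluster of sham, UAC and UAC + miR-330, too few for a comparison. Fgfrl1 encodes a receptor that binds FGF but lacks the kinase domain. Its level was 95.3 (89.1 to 102) in sham, 74.1 (67.3 to 81.3) in UAC and 84.1 (76.9 to 91.9) in UAC + miR-330. The sham and UAC intervals are apart, at a log2 ratio of -0.36 (-0.53 to -0.20), and at -0.034 per UMI of the chondrocyte markers. The UAC and UAC + miR-330 intervals overlap, with a log2 ratio of 0.18 that was -0.19 per UMI of the chondrocyte markers.

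**Figure D1:**
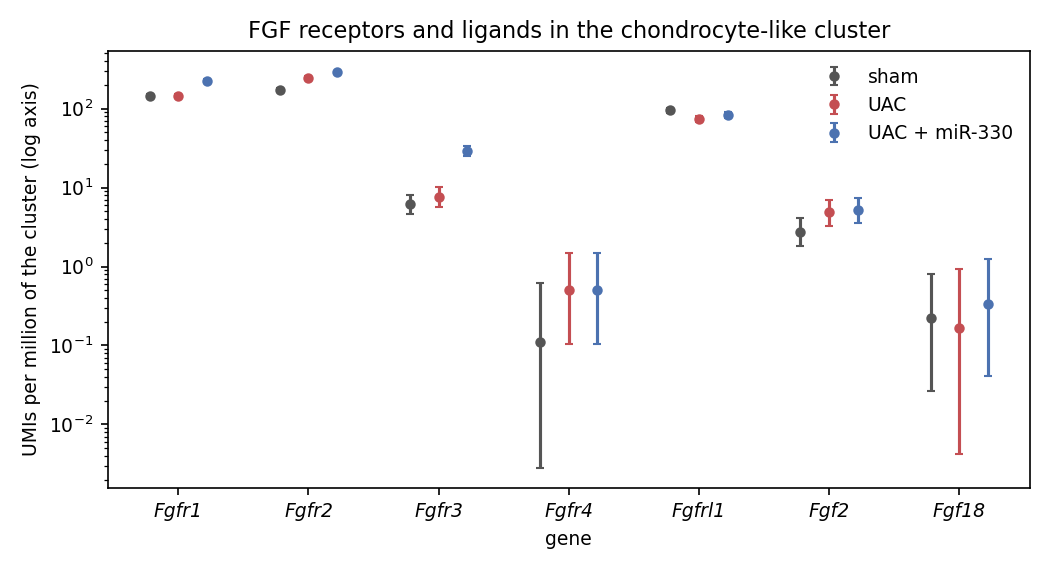
Level of each gene (UMIs per 1000000 UMIs of the chondrocyte-like cluster, log axis) for every library; points are levels of 1 library each and bars are exact Poisson 95% intervals. Fgfr1 and Fgfr3 are highest in UAC + miR-330, at 225 and 29.2, while Fgfr4 and Fgf18 rest on 3 or fewer UMIs in each library.

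Shares within the family do not depend on how libraries are scaled. Of the UMIs of the 4 receptors with a kinase, Fgfr1 held 44.7% (exact binomial 95% interval 42.9 to 46.6) in sham, 36.3% (34.3 to 38.2) in UAC and 41.4% (39.7 to 43.1) in UAC + miR-330. Fgfr2 held 53.3%, 61.7% and 53.1%. Fgfr3 held 1.92% (1.45 to 2.49), 1.93% (1.42 to 2.57) and 5.37% (4.62 to 6.21). The share of Fgfr1 was thus lowest in UAC with its interval apart from both other libraries, and the share of Fgfr3 was alike in sham and UAC and higher in UAC + miR-330. The ratio of Fgfrl1 to Fgfr1 UMIs was 0.660 (0.604 to 0.719) in sham, 0.513 (0.457 to 0.576) in UAC and 0.373 (0.336 to 0.414) in UAC + miR-330, lower at each step with intervals apart. These are shares and ratios of UMIs, and differences in capture between genes were not corrected.

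A gene was called where levels differed at least 1.5-fold with intervals apart, given 10 UMIs or more when both libraries were added. In the chondrocyte-like cluster 5 of the 7 genes reached that minimum. For UAC against sham 0 of the 5 were called higher, beside 6.81% of all genes, and 0 lower, beside 1.02%. For UAC + miR-330 against UAC 2 of the 5, Fgfr1 and Fgfr3, were called higher, beside 5.53% of all genes, and 0 lower, beside 5.28%. Both comparisons share the UAC library. Over genes with 50 UMIs or more the median log2 ratio was 0.14 for UAC against sham, so relative to it Fgfr1 stood at -0.14 and Fgfr2 at 0.38, and 0.02 for UAC + miR-330 against UAC. The deposited means add 0.20 and 0.24 to every log2 ratio of the respective comparison, and on that scale the ratio of Fgfr2 for UAC against sham was 0.71, past 1.5-fold. On that scale 96.2% and 83.6% of all called genes were higher in the respective comparison, against 86.9% and 51.1% on the scale of the levels. With centring on the median these shares were 70.9% and 48.4%.

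Over all clusters of a library 6 genes reached the minimum. For UAC against sham 1, Fgf18, was called higher, beside 5.6% of all genes, and 1, Fgfrl1, lower, beside 4.63%. Fgf18 stood at 0.167 in sham and 0.626 in UAC, from 13 and 58 UMIs, and Fgfrl1 at 13.0 and 6.75. For UAC + miR-330 against UAC 1, Fgfr3, was called higher, beside 8.87% of all genes, and 1, Fgf18, lower, beside 2.74%. Fgfr3 stood at 0.594 in UAC and 1.92 in UAC + miR-330, and Fgf18 at 0.626 and 0.329, from 58 and 32 UMIs. The log2 ratios were 1.86 and -0.95 for the calls in UAC, and 1.69 and -0.92 for those in UAC + miR-330. Whole-library values depend on how many UMIs each cluster adds, and the share of the chondrocyte-like cluster was largest in sham. Fgf18 had 2 or fewer UMIs in that cluster in each library. A change in the mix of cells and a change within cells cannot be told apart in them.

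**Figure D2:**
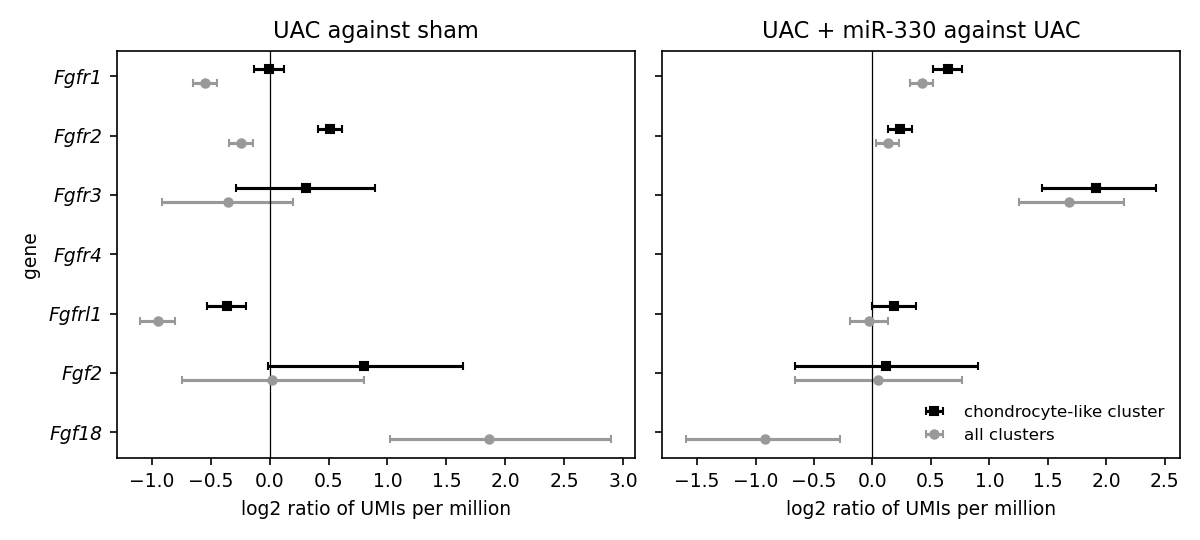
Log2 ratio of the level (UMIs per 1000000 UMIs) for each gene with at least 10 UMIs, for UAC against sham (left) and UAC + miR-330 against UAC (right); squares are the chondrocyte-like cluster, circles all clusters, and bars exact conditional 95% intervals of the ratio of 2 counts. Fgfr3 has the largest positive value on the right, 1.91 in the cluster, and Fgfr1 and Fgfr2 differ in the left panel between the cluster and all clusters.

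Markers of the cells in the chondrocyte-like cluster moved beside these receptors. The chondrocyte markers summed to a level of 63477 in sham, 50528 in UAC and 65629 in UAC + miR-330, with 17, 18 and 18 of 20 at 10 UMIs or more, Col2a1 most abundant, and Matn1 at 0 in UAC and UAC + miR-330. For UAC + miR-330 against UAC 7 of 19 chondrocyte markers were called higher, beside 5.53% of all genes, and 0 lower, beside 5.28%, among them Col10a1, the collagen of hypertrophic cartilage, at 232 and 699, and Prg4, the lubricin of the joint surface, at 3.85 and 72.9. Osteogenic markers summed to 69372, 58868 and 59842, with Col1a1 most abundant and 10, 11 and 11 of 12 at 10 UMIs or more, and for UAC + miR-330 against UAC 4 of 11 (Ibsp, Runx2, Alpl and Phex) were called higher and 1 (Dmp1) lower. Fibroblast markers summed to 8191, 8098 and 6777, with Col3a1 most abundant and 11, 10 and 11 of 13 at 10 UMIs or more. Of 11 tested, 1 (Col6a1, at 315 and 609) was called higher for UAC + miR-330 against UAC and 0 lower. For UAC against sham 6.81% of all genes were called higher and 1.02% lower. Of 19 chondrocyte markers 2 (Cytl1, with 4 and 28 UMIs in sham and UAC, and Prg4, with 6 and 23) were called higher and 1 (Snorc) lower. Of 11 osteogenic markers 2 (Dmp1 and Mepe, the latter with 4 and 68 UMIs) were called higher and 2 (Alpl and Ifitm5) lower. Cytl1, Prg4 and Mepe reached 10 UMIs only through the UAC library. Of 12 fibroblast markers 2 (Pdgfra and Col14a1) were called higher and 0 lower. The part of these markers in the values of Fgfr1, Fgfr2 and Fgfr3 was not tested beyond the denominators given.

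Markers of other cells in the same cluster also differed between libraries. Neutrophil markers summed to 1235 in sham, 4328 in UAC and 846 in UAC + miR-330, with 8, 7 and 6 of 12 at 10 UMIs or more, S100a9 most abundant in sham and UAC and S100a8 in UAC + miR-330, Ltf at 0 in sham and UAC + miR-330 and Prtn3 at 0 in sham. Endothelial markers summed to 55.2, 12.5 and 11.0, with 8, 2 and 2 of 10 at 10 UMIs or more, Emcn most abundant in sham and Egfl7 in the others, Cdh5, Kdr, Tek and Emcn at 0 in UAC and UAC + miR-330 and Esam at 0 in UAC + miR-330. Skeletal muscle markers summed to 133, 33.4 and 91.4, with 2 of 9 at 10 UMIs or more in each library, Tnni2 most abundant, Acta1, Tnnc2 and Actn3 at 0 in all 3 and Ckm at 0 in sham and UAC. Their part in the FGF results was not tested.

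The named ligands were scarce in the chondrocyte-like cluster. Fgf2 had levels of 2.77 (1.79 to 4.09) in sham, 4.85 (3.25 to 6.96) in UAC and 5.27 (3.58 to 7.48) in UAC + miR-330, from 25, 29 and 31 UMIs. All 3 intervals overlap, with log2 ratios of 0.80 (-0.02 to 1.64) and 0.12 (-0.66 to 0.90). Fgf18, often given as a product of the perichondrium and bone surface, had 2, 1 and 2 UMIs in this cluster.

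Most Fgf18 UMIs lay elsewhere. In UAC 41 of 58 were in cluster 17, and in UAC + miR-330 11 of 32 were in cluster 19. Each of these clusters had 10 of 12 T and NK cell markers enriched, was led by genes such as Ccl5, Cd3e, Klrd1, Gzmk and Cd27, and is called T and NK-like, although cluster 19 also had 8 mast cell and basophil markers enriched. The Fgf18 level there was 18.7 (13.4 to 25.4) in UAC and 4.74 (2.37 to 8.48) in UAC + miR-330, with intervals apart, a comparison chosen after its values were seen. Sham had no T and NK-like cluster, and its 13 Fgf18 UMIs included 5 in cluster 11, at 1.32 (0.429 to 3.08).

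Fgfr1 was less bound to the skeletal cluster than Fgfr2. The chondrocyte-like cluster held 78.5%, 63.6% and 69.5% of Fgfr1 UMIs in sham, UAC and UAC + miR-330, against 95.6%, 89.5% and 90.2% of Fgfr2 UMIs. It held 94.9%, 83.6% and 92.0% of Fgfr3 UMIs and 85.0%, 70.9% and 77.0% of Fgfrl1 UMIs. The intervals of the Fgfr1 and Fgfr2 shares were apart within each library.

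Outside it, each library had Fgfr1 in a cluster led by Dntt, the terminal transferase of lymphoid progenitors, together with Jhy, Ccdc141 and Erg. That cluster is number 11 in sham, 15 in UAC and 14 in UAC + miR-330. It is called after Dntt, which is among its 10 leading genes in all 3 libraries, although Jhy ranked before Dntt in sham and UAC. The list with the most enriched markers in it was T and NK in sham, 6 of 12, and endothelial in UAC and UAC + miR-330, 7 and 8 of 10, with 4 of 12 B cell markers enriched in each library. The naming rule used for the other clusters would call it endothelial-like in UAC and UAC + miR-330 and leave it unnamed in sham. Its Fgfr1 level was 36.7 (30.9 to 43.3) in sham, 28.8 (23.3 to 35.2) in UAC and 41.9 (35.5 to 49.1) in UAC + miR-330. The UAC and UAC + miR-330 intervals are apart, and both overlap that of sham. The same cluster held 63.5%, 48.8% and 64.2% of the UMIs of Flrt1, a membrane protein that binds FGF receptors, at levels of 26.1 (21.2 to 31.8), 24.2 (19.2 to 30.2) and 54.7 (47.3 to 62.8), the last apart from both others.

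In UAC the second highest Fgfr1 level, 44.8 (36.6 to 54.2), was in cluster 14, which was led by Sh3gl2, Cxcr5, Lax1 and Siglech and also held Fgfr2 at 25.0 (19.0 to 32.3). In UAC + miR-330 cluster 8, led by Cxcr5, Lax1 and Fcrl5 and left unnamed, had Fgfr1 at 18.4 (14.0 to 23.9) and Fgfr2 at 22.0 (17.1 to 27.9). Between these clusters the Fgfr1 intervals are apart, with the lower level in UAC + miR-330, and the Fgfr2 intervals overlap. Whether they hold the same mix of cells was not tested. The naming rule called cluster 14 dendritic cell-like, from 6 of 10 dendritic cell markers enriched. Of these 1, Siglech, is among its 10 leading genes, while Cxcr5, Fcer2 and Fcrl5, also known from B cells, are among them too. Cluster 14 is therefore given by its number here. Sham had no cluster led by these genes. In the T and NK-like clusters Fgfr1 stood at 17.8 (12.7 to 24.3) in UAC and 31.5 (24.7 to 39.6) in UAC + miR-330, with intervals apart, while Fgfr2 had 0 (upper bound of the level 1.68) and 2 UMIs there.

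The erythroid-like clusters had Fgfr1 at 8.54 (7.02 to 10.3) in sham, 11.0 (9.29 to 12.9) in UAC and 9.80 (8.42 to 11.4) in UAC + miR-330, with intervals that overlap. These were clusters 13 and 14 added in sham, 11 in UAC, and 5 and 11 added in UAC + miR-330. Sham cluster 14 had 9 erythroid markers enriched but also 8 of mast cells and basophils. In UAC + miR-330 cluster 5 had 7 erythroid and 6 macrophage markers enriched. Their 13 and 27 Fgfr1 UMIs have intervals that include the 10.6 and 19.2 of the collagen ratio given below. The macrophage-like clusters had Fgfr1 at 3.41 (2.08 to 5.26) in UAC and 10.5 (8.09 to 13.5) in UAC + miR-330, with intervals apart. Sham had no cluster named macrophage-like, but its unnamed cluster 15, where macrophage markers were the most enriched list, had Fgfr1 at 11.2 (7.94 to 15.4). In the neutrophil-like clusters Fgfr1 had 2 UMIs in sham and 0 in UAC and UAC + miR-330, where the upper bounds of the level were 0.401 and 0.467. Both sham UMIs were in cluster 8, led by Ifit3, and the unnamed clusters led by Ifit genes in UAC (8) and UAC + miR-330 (6) also held 2 each. The order of Fgfr1 levels was thus chondrocyte-like first in each library. In sham the Dntt-led cluster came next and then cluster 15, whose interval overlaps that of the erythroid-like clusters. In UAC cluster 14 came next, followed by the Dntt-led, T and NK-like and erythroid-like clusters. From the Dntt-led cluster down each interval overlaps the next. In UAC + miR-330 the Dntt-led and T and NK-like clusters followed with intervals that overlap, then cluster 8, and then the macrophage-like and erythroid-like clusters, which overlap each other.

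**Figure D3:**
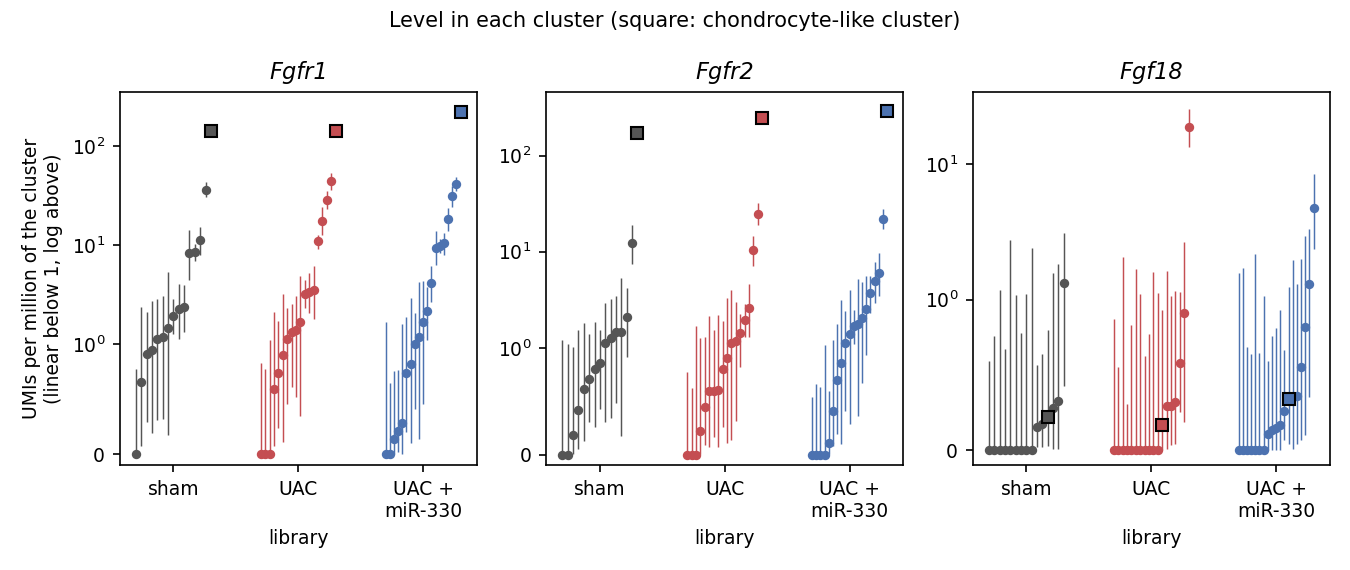
Level of Fgfr1, Fgfr2 and Fgf18 in each cluster of each library (UMIs per 1000000 UMIs of the cluster, axis linear below 1 and logarithmic above); points are clusters in order of level, squares the chondrocyte-like cluster, bars exact Poisson 95% intervals. The chondrocyte-like cluster is highest for Fgfr1 and Fgfr2, and for Fgf18 the highest point is the T and NK-like cluster of UAC, at 18.7.

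Fgfr1 was also set against the summed UMIs of the skeletal collagen genes Col1a1, Col2a1 and Col3a1. At the ratio of the chondrocyte-like cluster, the collagen UMIs of the other clusters correspond to 32.4 Fgfr1 UMIs in sham, 18.0 in UAC and 42.6 in UAC + miR-330, and these clusters held 358, 494 and 581. In 8 of 14, 11 of 17 and 8 of 18 clusters the Poisson interval of Fgfr1 lay above the collagen ratio, and for Fgfr2 in 4, 5 and 6 of the same clusters, with 72, 172 and 184 UMIs against 38.6, 30.7 and 54.7. For Fgfrl1 the interval lay above it in 9, 13 and 9 of them, with 152, 182 and 148 UMIs against 21.4, 9.26 and 15.9. In the Dntt-led clusters the Fgfr1 counts were 139, 95 and 151 UMIs against 1.64, 0.601 and 0.845 at the collagen ratio. The part of free RNA in these counts was not tested.

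Over the 52 clusters of the 3 libraries, which share library and depth, the genes with levels most like Fgfr1 were Arhgef10 (Pearson r 0.91), Ptprf (0.91), Arhgef12 (0.89), Trio (0.89) and Mn1 (0.88), among 13923 genes with at least 100 UMIs. For Fgfr2 they were Efna5 (0.93), Sspn (0.91), AC130970.1 (0.90), S1pr3 (0.90) and Fzd2 (0.90). For Fgfr3 they were R3hdml (0.97), LOC103690116 (0.96), Armcx4 (0.96), Synpo (0.96) and Sp7 (0.96). Within the family r was 0.80 between Fgfr1 and Fgfr2, 0.62 between Fgfr1 and Fgfr3 and 0.80 between Fgfr2 and Fgfr3, and Fgfrl1 had 0.66 with Fgfr1, 0.76 with Fgfr2 and 0.87 with Fgfr3. For Fgf18, a sparse gene, they were Srcin1 (0.90), Art2b (0.89), Klra22 (0.88), Klri2 (0.88) and Ly49s5 (0.88), and its r was 0.39 with Fgfr1, 0.02 with Fgfr2, -0.01 with Fgfr3 and -0.06 with Fgfrl1. The values describe these clusters and carry no test.

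Among the other FGF ligands few UMIs were found in the chondrocyte-like cluster. Fgf1, which binds all FGF receptors, had 21, 12 and 22 UMIs there and Fgf9, a ligand of skeletal growth, had 8, 9 and 10. Fgf7, a mesenchymal ligand of the epithelial form of Fgfr2, had 0, 2 and 14 UMIs. For UAC + miR-330 against UAC it was the 1 of 5 other ligands called higher, beside 5.53% of all genes. Its log2 ratio was 2.56 (0.71 to 6.01), and it reached 10 UMIs only through the UAC + miR-330 library. For UAC against sham 0 of 4 were called, beside 6.81% of all genes higher and 1.02% lower. Over all clusters Fgf7 was the 1 of 8 called higher for UAC + miR-330 against UAC, beside 8.87%. Over whole libraries Fgf10 had 6 UMIs in UAC and 20 in UAC + miR-330, Fgf11 had 17, 9 and 12 and Fgf14 had 12, 14 and 14.

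Fgf12 had the most UMIs of the FGF ligand genes listed, in each library. It encodes an intracellular FGF homologous factor that is not secreted and is known for binding sodium channels. Over all clusters Fgf12 was the 1 of 6 other ligands called higher for UAC against sham, at 17.0 and 26.0, beside 5.6% of all genes. It had 1317, 2405 and 2937 UMIs in sham, UAC and UAC + miR-330. Of these 92.0% (90.4 to 93.4), 91.4% (90.2 to 92.5) and 94.0% (93.1 to 94.8) lay in clusters with at least 3 neutrophil markers enriched and no list with more, 2 in sham and 4 in each other library, named or not. The intervals of sham and UAC overlap, and that of UAC + miR-330 lies above UAC and overlaps sham. Its level in these clusters was 155 (147 to 164), 149 (143 to 156) and 199.8 (192 to 207), against 0.998, 2.01 and 0.850 in the chondrocyte-like cluster. These sets of clusters were chosen after the values were seen and need not hold the same mix of cells.

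The other genes of the pathway were taken as 104 genes in 7 lists. In the chondrocyte-like cluster 10 of 75 with at least 10 UMIs were called higher, beside 6.81% of all genes, and 0 lower, beside 1.02%, for UAC against sham, with a median log2 ratio of 0.23 beside 0.15 over all genes with as many UMIs. Centred on the median of all genes the 10 became 4, Flrt2, Sulf2, Pik3r1 and Ccnd1, beside 4.26% of all genes after centring. For UAC + miR-330 against UAC 2 of 72 were called higher, beside 5.53%, and 7 lower, beside 5.28%, with a median of 0.06 beside 0.01. On the scale of the deposited means 18 of 75 and 11 of 72 were called higher in the respective comparison, beside 15.0% and 13.9% of all genes on that scale. Over all clusters the calls ran otherwise, with 4 of 81 higher and 4 lower for UAC against sham, beside 5.6% and 4.63% of all genes, and 6 of 83 higher and 1 lower for UAC + miR-330 against UAC, beside 8.87% and 2.74%. The lists below are short, and their counts are read against the same shares of all genes.

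Co-receptors and FGF-binding proteins had 2 of 5 called higher for UAC against sham, Flrt2 and Ncam1, and 1 of 4, Flrt2, for UAC + miR-330 against UAC. Flrt2, a membrane protein that binds FGF receptors, had levels of 21.3, 38.6 and 76.0 in sham, UAC and UAC + miR-330, higher at each step. Ncam1, an adhesion molecule that binds Fgfr1, stood at 20.8, 33.8 and 26.5, and its call was lost after centring. N-cadherin, Cdh2, which also binds Fgfr1, was not called, at log2 ratios of 0.45 (0.29 to 0.61) and 0.14 (-0.02 to 0.30), but was called higher in UAC than in sham on the scale of the deposited means.

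Of the heparan sulfate proteoglycans and enzymes 2 of 20 were called higher for UAC against sham, beside 6.81% of all genes, and 2 of 18 lower for UAC + miR-330 against UAC, beside 5.28%. Sulf2, an enzyme that removes sulfate groups from heparan sulfate, was called in both, with 12, 36 and 7 UMIs and log2 ratios of 2.14 (1.20 to 3.26) and -2.26 (-3.75 to -1.15). The neutrophil markers of the cluster were also highest in UAC, and their part in the Sulf2 counts was not tested. Sdc1, a syndecan, was called higher in UAC at 6.87 and 11.4, a call that was lost after centring. Agrn, the proteoglycan agrin, was called lower in UAC + miR-330 at 4.85 and 1.53, a call that was lost on the scale of the deposited means. The members most abundant in the cluster were Sdc2 at 445, 449 and 447, Gpc1 at 402, 389 and 340.2 and Sdc4 at 239, 242 and 320.5. They were not called, although on the scale of the deposited means Sdc4 was called higher in UAC + miR-330 than in UAC. Over all clusters 4 of 21 (Sdc2, Sdc3, Gpc1 and Sulf1) were called lower for UAC against sham, beside 4.63% of all genes, and 0 higher, beside 5.6%. In sham 4017 of 4169 Sdc2 UMIs and 3623 of 3780 Gpc1 UMIs lay in the chondrocyte-like cluster. That cluster made up 11.6% of the UMIs in sham and 6.46% in UAC, and its part in these calls was not tested.

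Few adaptors and effectors were called. Pik3r1, the regulatory subunit of PI3-kinase, was the 1 of 17 called for UAC against sham, at 55.9 in sham and 93.1 in UAC, and 0 of 17 were called for UAC + miR-330 against UAC. With the chondrocyte-like clusters of the 3 libraries added, Prkca, Stat3 and Grb2 had the most UMIs of the list. They were not called in either comparison. In the RAS-MAPK cascade Rps6ka3, a kinase downstream of ERK, was the 1 of 12 called for UAC against sham, at 88.6 and 143, a call lost after centring, and 0 of 12 were called for UAC + miR-330 against UAC. Hras, a small GTPase of the cascade, stood at 113, 93.8 and 88.7 and was not called.

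Feedback inhibitors are genes that FGF signals are known to induce. For UAC against sham 3 of 10, Spry1, Dusp5 and Dusp6, were called higher, beside 6.81% of all genes, and 0 lower, and after centring on the median 0 of the 10 were called. Between UAC + miR-330 and UAC 0 were called higher and 3 of 10, Spry1, Dusp5 and Il17rd, lower, beside 5.28% of all genes, and Il17rd was not called on the scale of the deposited means, where Spred1 was called higher. Spry1, a sprouty, stood at 16.6, 27.1 and 13.1 in sham, UAC and UAC + miR-330. Dusp5, a nuclear ERK phosphatase, stood at 8.31, 13.4 and 5.95. Il17rd, a membrane inhibitor of FGF signals, stood at 2.44, 4.18 and 1.36. Spry1 and Dusp5 were thus highest in UAC with intervals apart from both other libraries, whose intervals overlap. The neutrophil markers of the cluster were also highest in UAC, and of the 10823 Dusp5 UMIs of that library 80 lay in the cluster, so that its level over the library, 117, was above that in the cluster. The part of other cells in the counts of these inhibitors was not tested. Dusp6, an ERK phosphatase of the cytoplasm, stood at 9.53, 15.7 and 13.8. Spred1, the inhibitor with the most UMIs in the cluster though not over the libraries, stood at 125, 124 and 175, and Spred2 at 42.0, 54.5 and 52.8, neither called.

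Of the ETS factors and growth targets 1 of 7, Ccnd1 (cyclin D1), was called higher for UAC against sham, at 29.2 and 62.2, and it stood at 65.8 in UAC + miR-330. Fosl1, an AP-1 factor, and Myc were the 2 of 6 called lower for UAC + miR-330 against UAC. Fosl1 stood at 10.5, 13.7 and 5.95, and Myc at 41.1, 58.0 and 31.3. The sham and UAC intervals overlap for Fosl1 and are apart for Myc. Both genes had their highest value in UAC like the neutrophil markers, whose part was not tested. Egr1, an immediate early factor, stood at 174, 208 and 242 and was not called.

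Because the third library received miR-330, the mature microRNAs of its hairpin are shown as RefSeq gives them for the rat (assembly GRCr8), with the seed, bases 2 to 8, in capitals. They lie on the plus strand of chromosome 1 within the span of the gene Eml2, miR-330-5p at chr1:87961227-87961248 and miR-330-3p at chr1:87961266-87961288.
rno-miR-330-5p: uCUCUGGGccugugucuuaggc
rno-miR-330-3p: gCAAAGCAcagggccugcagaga
Among 724 mature rat microRNAs in the table the seed of miR-330-5p is shared by 1 other, rno-miR-326-3p, and that of miR-330-3p by 0. Mir330 itself was not listed in the tables, so the delivered microRNA was not measured in these libraries, and the insert of the AAV, the arm it yields and binding sites in Fgfr1 were not analysed here.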

How the data were processed

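The authors deposited 1 table per library with mean counts per cluster, in the layout of Cell Ranger's graph-based clustering. The deposited values are a signal: UMI sums that the authors scaled by a factor of each cluster's own. Columns with log2 fold changes and adjusted p-values hold the authors' comparisons of each cluster with the rest of its library and were not used. The submitters' processing notes name Cell Ranger 7.0, Seurat 4.0.1 and STAR, and the builds GRCh38 and mm10, while the gene identifiers are those of rat, so the build of these tables is not certain. The submitters' extraction protocol speaks of cultured cell lines, while their other labels describe condylar tissue of rats. The tissue was taken as labelled.

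Each mean was divided by the smallest positive mean of its column. Of the quotients 100% were whole at a tolerance of 0.001 in every library, and the largest distance was 1.04e-07. No count model was fitted: with 1 library per condition there is no spread between replicates to estimate. Log2 ratios had 0.5 UMI added to each count and exact conditional binomial 95% intervals. Named genes were the 7 members, other FGF ligands with at least 10 UMIs in a library, in each pathway list up to 3 genes with the most UMIs and up to 3 called genes with the largest ratio in each direction, and the 5 genes most alike by Pearson r of log2(level + 1). Flrt1 and Fgf21 were added after their values were seen. The members and lists were chosen with earlier results of these data known.

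A cluster was named from at least 3 enriched markers (10 UMIs and a log2 ratio to the rest of the library of at least 1) where no other class had as many and the class led among its 10 leading genes. The rule was chosen with the tables in view, and exceptions were made. The cluster led by Dntt was called by that gene, and UAC cluster 14, dendritic cell-like by the rule, is given by its number. With the Dntt-led cluster, 8 of 15, 7 of 18 and 11 of 19 clusters of sham, UAC and UAC + miR-330 have no cell type. Cluster 14 is not among those 7. Of 104 pathway genes 90 were listed by the same name, 1 was matched by a synonym in the RefSeq table of GRCr8, and 13 were not matched; of 171 marker genes these were 161, 1 and 9. Names on several identifiers (101, 106 and 116) had their UMIs added. Sums over clusters do not show doublets, which were not treated, and free RNA was not subtracted. Alternatives were the deposited scale, centring on the median, marker UMIs or all clusters as denominator, other UMI minimums, folds and added UMIs, and leaving out mitochondrial and ribosomal protein genes. Analyses used Python 3.11.15, numpy 2.4.6, pandas 2.3.3, scipy 1.17.1 and matplotlib 3.10.9, and the scripts were tested on simulated data.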

Additional observations from a re-analysis of the deposited data

How the results depend on the processing

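Log2 ratios in the chondrocyte-like cluster moved with the scale and the denominator, and the cause was not tested. For UAC against sham the ratio of Fgfr1 was 0.19 on the deposited scale, -0.14 centred on the median, 0.26 per UMI of the chondrocyte, osteogenic and fibroblast markers, 0.33 per UMI of the chondrocyte markers and -0.55 over all clusters. For Fgfr2 these were 0.71, 0.38, 0.77, 0.84 and -0.24. For Fgfrl1 they were -0.17 on the deposited scale, -0.10 and -0.034 per marker UMI and -0.95 over all clusters, and for Fgfr3 -0.35 over all clusters. For UAC + miR-330 against UAC the ratio of Fgfr1 was 0.88 on the deposited scale, 0.47 and 0.27 per marker UMI and 0.42 over all clusters. For Fgfr2 these were 0.47, 0.065, -0.14 and 0.13, and for Fgfrl1 0.42 on the deposited scale, -0.19 per UMI of the chondrocyte markers and -0.029 over all clusters. Leaving out mitochondrial and ribosomal protein genes, or adding 0 or 5 UMIs, kept all 10 ratios within their intervals.

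The share of Fgfr1 among the 4 receptors was 49.6%, 44.4% and 47.9% over all clusters of sham, UAC and UAC + miR-330. Of 75 pathway genes those called higher for UAC against sham were 20 at the smaller minimum fold (beside 12.8% of all genes under the same setting), 2 at 2-fold (3.24%), 18 on the deposited scale (15.0%) and 4 centred on the median (4.26%). For UAC + miR-330 against UAC those called higher of 72 were 13 at the smaller minimum fold (10.8%), 1 at 2-fold (1.82%) and 11 on the deposited scale (13.9%), and of 58 with at least 50 UMIs 1 was called higher (6.49%) and 4 lower (5.60%). No paired analysis was possible because each condition has 1 library. The depth limits Fgfr4 and Fgf18, with 3 or fewer UMIs in each chondrocyte-like cluster, and Fgf2, with 31 or fewer.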

Other observations

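Fgf12 and Fgf18 were seen mainly outside skeletal cells. In the clusters led by Ngp and Lcn2 the Fgf12 level was 89.8 UMIs per 1000000 UMIs in sham, 106 in UAC and 195 in UAC + miR-330, and in those led by Ifit3, Ifit1bl and Isg15 it was 257, 224 and 303, with Retnlg also among the leading genes in sham. In those led by Retnlg and Mmp9 it was 243 in UAC and 327 in UAC + miR-330, and in those led by Defa11 and Defa5 it was 37.3 and 55.7. In the UAC library 70.7% (57.3 to 81.9) of Fgf18 UMIs lay in the T and NK-like cluster. Which transcripts of these genes gave the UMIs was not tested. Fgf21, known as a hormone of metabolic stress, was not listed in sham and UAC and had 9 UMIs in UAC + miR-330, all in the chondrocyte-like cluster, a gene chosen after its values were seen.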
